A study of Mus musculus with 16 samples.

Results

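The 10 adipocyte genes, which fat cells use to store lipid or to signal to other tissues, are described here across the dorsal skin of 16 mice. They were taken by gene symbol from the count tables, where each of the 10 symbols (Adipoq, Fabp4, Plin1, Plin4, Lep, Lpl, Cidec, Cfd, Retn and Pparg) stood in 1 of the 23282 rows. The list was chosen by function and with the measured differences between the 4 groups in these data known, so the values of the 10 genes are given below as a description and without a test. Each of the 10 passed the filter on low counts in a table where 14854 rows did, and none was at 0 in a whole group.

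Total RNA of dorsal skin from male wild-type C57BL/6N mice was made into QuantSeq libraries, 1 per mouse and 4 per group, with the mice drawn at random from larger groups. Cont mice ate normal chow. LowAhR mice ate a diet low in ligands of the aryl hydrocarbon receptor (AhR), a transcription factor activated by dietary and environmental compounds, for 12 weeks and were kept on paper bedding, so that diet and bedding cannot be told apart. LowAhR+AD mice had the same diet and in addition 1% DNCB, a hapten that causes a dermatitis used as a model of atopic dermatitis (AD), on the back 2 times a week for the last 10 weeks, and LowAhR+AD+BJ mice also received the herbal formula Bojungikgi-tang (BJIKT) by mouth at 1 g/kg per day. Mice given DNCB on normal chow, or BJIKT without DNCB, were not analysed here, and the sources used here mention no solvent-only treatment of Cont and LowAhR skin.

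Below the dermis of mouse back skin lies a layer of white fat cells, which thickens and thins with the hair cycle, with feeding and in inflammation. White fat cells take up fatty acids that lipoprotein lipase frees from circulating lipoproteins, store them as triglyceride in a single large droplet coated with perilipins, and release them again by lipolysis. They secrete hormones, the adipokines, and the nuclear receptor PPARγ is the transcription factor that drives and maintains their differentiation. A layer of striated muscle, the panniculus carnosus, lies directly beneath this fat, and full-thickness samples can hold variable amounts of both.

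The 10 genes lie on 7 chromosomes of the mm10 build (GRCm38). The coordinates are those of the RefSeq annotation of that assembly. Adipoq, which encodes the adipokine adiponectin, spans chr16:23146536-23157968, Lep (leptin) chr6:29060221-29073876, Retn (resistin) chr8:3655770-3659818 and Cfd (complement factor D, or adipsin) chr10:79890853-79892655. The droplet genes Plin1, Plin4 and Cidec span chr7:79721164-79732904, chr17:56100587-56109948 and chr6:113424634-113435760. Lpl spans chr8:68880555-68906932, Fabp4 chr3:10204342-10208616 and Pparg chr6:115360879-115490404. The 250 bases before the start are shown for Lep, whose mean differed most between the diets in relation to its level, and for Adipoq, the gene most closely followed by the other members. Capitals mark the motifs that were found, and the sequences are those of RefSeq for GRCm38.p6, both on the plus strand, 5′ to 3′.
Lep, chr6:29059971-29060220: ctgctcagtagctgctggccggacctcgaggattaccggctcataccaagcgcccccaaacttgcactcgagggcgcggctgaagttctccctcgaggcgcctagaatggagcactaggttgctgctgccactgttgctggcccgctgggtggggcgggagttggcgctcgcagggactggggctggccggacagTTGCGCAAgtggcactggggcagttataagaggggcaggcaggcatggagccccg
Adipoq, chr16:23146286-23146535: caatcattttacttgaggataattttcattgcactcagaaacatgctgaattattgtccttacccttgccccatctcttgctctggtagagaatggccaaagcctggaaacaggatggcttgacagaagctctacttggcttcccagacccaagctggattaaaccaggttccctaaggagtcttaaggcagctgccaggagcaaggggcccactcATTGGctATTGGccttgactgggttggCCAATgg

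Short motifs were searched on both strands of the 11 windows of this kind that the table held for 8 of the genes. Fabp4 and Lpl had no window in it. The palindrome TTGCGCAA, a binding motif of the C/EBP factors of fat cell differentiation, stood in the Lep window 55 to 48 bases before the start, in 1 of the 11 windows and in 0.164% of all 32851 promoters of the same length. The CCAAT letters, which read ATTGG on the other strand, stood 3 times in the Adipoq window, at 34 to 30, 27 to 23 and 7 to 3 bases before the start, and 4 of the 11 windows held them, against 33.8% of all promoters. AGGTCA, the half-site of nuclear receptors, stood in 2 of the 11 windows, both of Pparg, against 14.02% of all promoters, and TATAAA in 1 of the 11, against 12.4%. A DR1 repeat, here AGGNCA followed after 1 base by AGGNCA, the form bound by PPARγ with its partner, stood in 0 of the 11 windows and in 0.338% of all promoters.

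Library totals were 7080508 to 8773876 counts in the Cont and LowAhR groups and 10614393 to 13467477 in the 2 groups given DNCB. Levels are CPM, the counts of a library brought to a fixed total after TMM scaling. QuantSeq reads about 1 fragment at the 3′ end of a transcript whatever its length, so CPM was not divided by length. Whether all genes are captured equally well was not tested, so the CPM of different genes can be set beside each other only roughly. A count of 0 allows up to 0.229 to 0.406 CPM, depending on the library, counting error only. LowAhR+AD replicate 1 stood apart: 32.6% of the genes at an expected 20 to 40 counts, judged from the rest of its group, had no count there, against at most 13.8% in any other library. It was the lowest library of its group in 8 of the 10 genes, so values of that group are also given without it. The smallest count of a member outside that library was 10, for Lep in a Cont library.

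In the skin of LowAhR mice the mean of each of the 10 genes was above that of Cont mice, by 1.30-fold for Pparg to 10.2-fold for Lep. In LowAhR+AD skin each mean was below that of LowAhR skin, to 0.0827 of it for Retn and to 0.701 of it for Pparg, and 9 of the 10 means lay below that of Cont, or 7 without LowAhR+AD replicate 1. The levels of LowAhR+AD+BJ skin overlapped those of LowAhR+AD skin in all 10 genes. The 10 genes together took 0.344% to 0.693% of the counts of a Cont library, 0.876% to 1.34% of a LowAhR library, 0.0686% to 0.446% of a LowAhR+AD library and 0.279% to 0.415% of a LowAhR+AD+BJ library. In bulk skin, fewer fat cells and less of these transcripts per fat cell cannot be told apart.

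**Figure D1:**
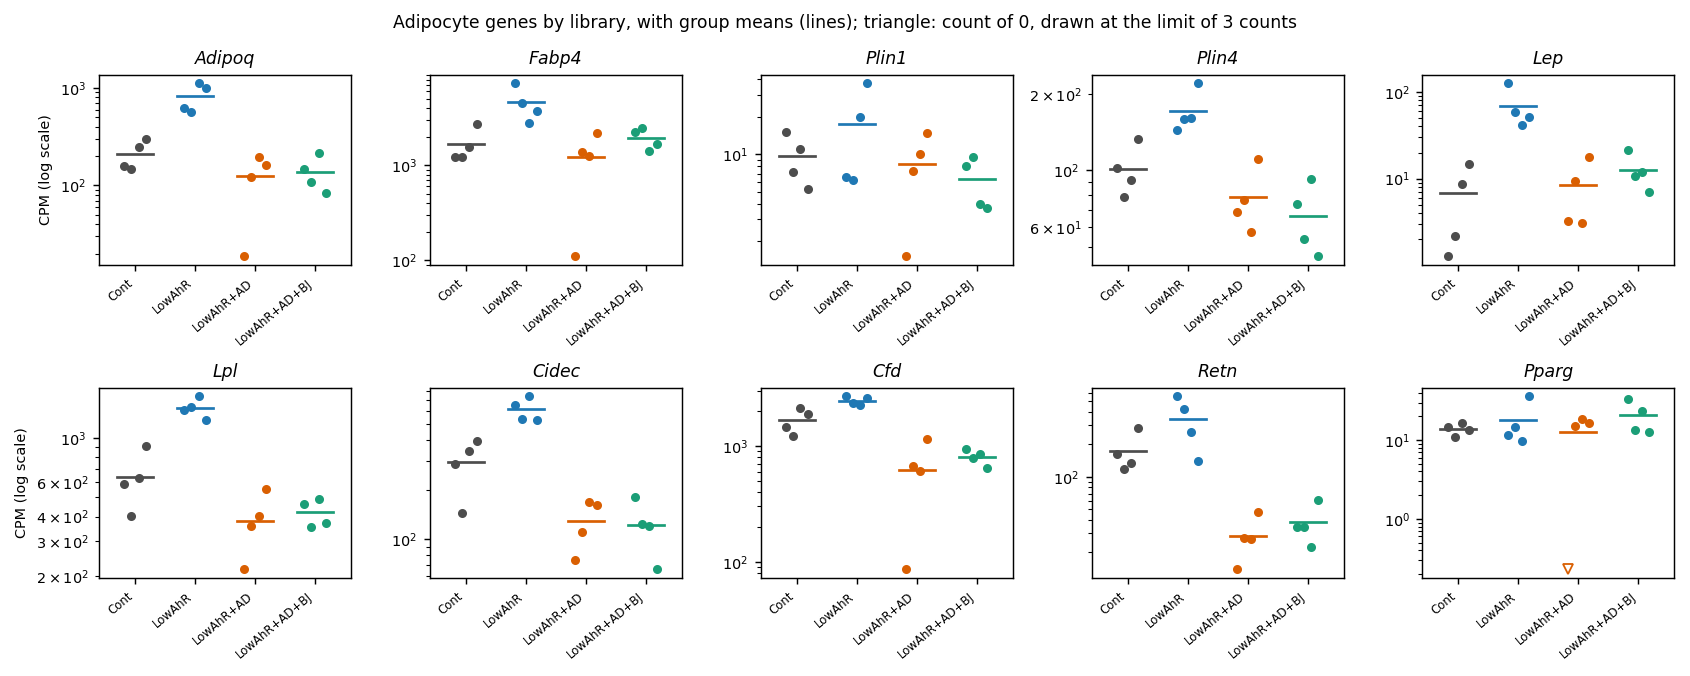
CPM of the 10 adipocyte genes in each library on log axes, by group, with replicates 1 to 4 from left to right and lines at the group means; the open triangle marks the count of 0 for Pparg, drawn at the limit that 3 counts set. For Adipoq the 4 LowAhR libraries lie between 571 and 1119 CPM, above every library of the other groups.

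Adipoq encodes adiponectin, a hormone made almost only by fat cells. In replicates 1 to 4 it was at 158, 148, 248 and 297 CPM in Cont skin and at 620, 571, 1119 and 991 CPM in LowAhR skin. In LowAhR+AD skin it was at 18.9, 123, 195 and 162 CPM, and in LowAhR+AD+BJ skin at 147, 108, 217 and 83.2 CPM. All LowAhR libraries were thus higher than every other library, while Cont and the 2 groups given DNCB overlapped. The means were 213 ± 72.1 CPM (SD, n = 4) in Cont, 825 ± 271 in LowAhR, 125 ± 76.7 in LowAhR+AD and 139 ± 58.1 in LowAhR+AD+BJ, and without replicate 1 the LowAhR+AD mean was 160 ± 36.5 CPM (SD, n = 3).

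Lep encodes leptin, which fat cells secrete in proportion to their lipid stores and which restrains feeding. It was at 1.28, 2.20, 8.76 and 14.8 CPM in Cont skin and at 126, 58.5, 41.5 and 51.1 CPM in LowAhR skin. Leptin transcripts stood at 3.28, 9.35, 3.11 and 18.0 CPM in LowAhR+AD skin and at 21.4, 10.7, 12.0 and 6.96 CPM in LowAhR+AD+BJ skin. Every LowAhR library was above every library of the other 3 groups, which overlapped each other. Lep had the largest log2 fold change of the 10 genes in LowAhR against Cont, 3.35 (standard error 0.70), and leaving out single libraries moved it between 2.89 and 4.08. In LowAhR+AD against LowAhR it was -3.04 (standard error 0.69).

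Retn encodes resistin, an adipokine that impairs the response to insulin in mice. It was at 163, 118, 134 and 281 CPM in Cont skin and at 556, 423, 263 and 141 CPM in LowAhR skin, so that these groups overlapped. With DNCB it was at 13.9, 26.9, 26.4 and 47.2 CPM in LowAhR+AD skin and at 34.4, 34.6, 22.2 and 61.4 CPM in LowAhR+AD+BJ skin. All 8 libraries given DNCB were therefore below all 8 others. Retn had the lowest log2 fold change of the members both in LowAhR+AD against LowAhR, -3.60 (standard error 0.46), and in LowAhR+AD against Cont, -2.61 (standard error 0.45). These comparisons share the LowAhR+AD libraries.

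Cfd encodes adipsin, the protease that starts the alternative complement pathway and is secreted mainly by fat cells. It was at 1457, 1211, 2103 and 1892 CPM in Cont skin and at 2669, 2323, 2254 and 2570 CPM in LowAhR skin. In LowAhR+AD skin it was at 86.0, 664, 604 and 1138 CPM, and in LowAhR+AD+BJ skin at 932, 785, 858 and 647 CPM. The 3 levels of Cont, LowAhR and the groups given DNCB did not overlap, with LowAhR highest. Its mean was 1.47-fold that of Cont in LowAhR skin, the smallest ratio of the 7 genes whose LowAhR libraries were all above Cont.

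Fabp4 encodes the fatty acid carrier of the fat cell cytoplasm. It was at 1211, 1222, 1573 and 2727 CPM in Cont skin and at 7337, 4543, 2788 and 3711 CPM in LowAhR skin. The LowAhR+AD libraries held 111, 1394, 1243 and 2194 CPM, and the LowAhR+AD+BJ libraries 2243, 2491, 1400 and 1688 CPM. The lowest LowAhR library was only just above the highest Cont library, and LowAhR+AD replicate 1 was more than 10 times below the other 3 of its group. The log2 fold change from LowAhR to LowAhR+AD was -1.89 with that library and -1.52 without it.

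Lpl encodes lipoprotein lipase, which muscle also makes. It was at 587, 402, 629 and 915 CPM in Cont skin and at 1390, 1437, 1629 and 1240 CPM in LowAhR skin. In LowAhR+AD skin it was at 216, 358, 404 and 550 CPM, and in LowAhR+AD+BJ skin at 465, 353, 490 and 373 CPM. LowAhR libraries were again above all others, while Cont ran from 402 to 915 CPM and LowAhR+AD from 216 to 550 CPM. The log2 fold changes were 1.17 (standard error 0.28) in LowAhR against Cont and -1.90 (standard error 0.29) in LowAhR+AD against LowAhR.

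Cidec encodes a protein that joins small lipid droplets into the large one of white fat cells. It was at 287, 145, 345 and 399 CPM in Cont skin and at 656, 540, 740 and 535 CPM in LowAhR skin. Its level in LowAhR+AD skin was 74.9, 110, 169 and 161 CPM, and in LowAhR+AD+BJ skin 181, 124, 120 and 65.8 CPM. Only Cont replicate 2 reached into the range of the groups given DNCB. The log2 fold change was 1.07 (standard error 0.33) in LowAhR against Cont, -2.26 (0.35) in LowAhR+AD against LowAhR and -1.19 (0.34) in LowAhR+AD against Cont.

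Plin4 and Plin1 encode coat proteins of the droplet, and perilipin 1 controls the access of lipases to it. Plin4 was at 78.6 to 133 CPM in Cont, 144 to 220 in LowAhR, 57.4 to 111 in LowAhR+AD and 46.1 to 92.5 in LowAhR+AD+BJ skin. Its LowAhR libraries were above those of every other group. The log2 fold change was 0.75 (standard error 0.26) in LowAhR against Cont and -1.12 (0.26) in LowAhR+AD against LowAhR, the value nearest 0 among the 8 genes that did not overlap there. Plin1 was low throughout, at 15.02, 7.24, 10.98 and 5.27 CPM in Cont and 6.63, 6.27, 20.03 and 37.2 CPM in LowAhR skin. It was at 1.53, 7.38, 10.1 and 14.7 CPM in LowAhR+AD and 8.12, 9.47, 3.97 and 3.73 CPM in LowAhR+AD+BJ skin, and every pair of groups overlapped. The high mean of LowAhR skin rested on replicates 3 and 4, which also had the highest sums of muscle markers, 26317 and 27655 CPM against 11763 and 12342 CPM in replicates 1 and 2, and the part of that in the result was not tested.

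Pparg was at 14.5, 10.9, 16.3 and 13.4 CPM in Cont, 11.498, 14.6, 9.89 and 35.8 CPM in LowAhR and 33.1, 13.3, 23.3 and 12.6 CPM in LowAhR+AD+BJ skin. In LowAhR+AD skin it had no count in replicate 1, which allows up to 3 counts, and was at 15.3, 18.7 and 16.4 CPM in the others. All groups overlapped in Pparg. Its log2 fold change in LowAhR against Cont was 0.38 (standard error 0.77) and -0.20 without LowAhR replicate 4. In LowAhR+AD against LowAhR it was -0.51 (0.77). That value was -0.10 (0.42) when LowAhR+AD replicate 1 was left out and 0.070 when LowAhR replicate 4 was. Pparg and Plin1 were the 2 of the 10 genes whose libraries overlapped in every comparison.

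**Figure D2:**
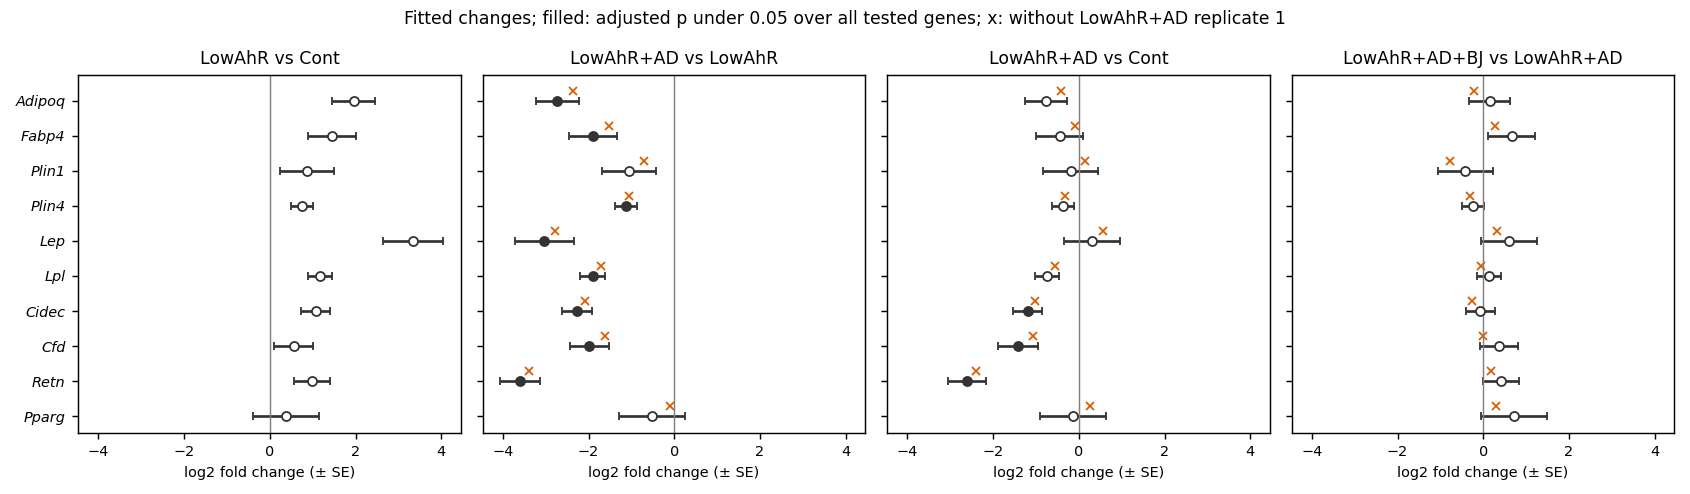
Fitted log2 fold change with its standard error for each gene in the 4 comparisons; filled points passed an adjusted p of 0.05 over all tested genes, and crosses show the fit without LowAhR+AD replicate 1. In LowAhR against Cont all 10 points lie above 0, from 0.38 for Pparg to 3.35 for Lep, and in LowAhR+AD against LowAhR all lie below it, from -3.60 for Retn to -0.51 for Pparg.

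Over the 10 genes, the median log2 fold change in LowAhR against Cont was 1.03, against 0.026 over all tested genes, and in 7 genes every LowAhR library was above every Cont library, which held for 5.68% of the genes tested. With edgeR's quasi-likelihood test over all 16 libraries, 0 of the 10 and 0% of all genes were called at an adjusted p of 0.05 in this comparison, while 7 of the 10 and 7.84% of all genes were higher at an unadjusted p under 0.05. DESeq2 called 4 of the 10 higher (Adipoq, Lep, Lpl and Cidec) with 2.4% of all genes, limma voom called 0 and 0%, and an edgeR model of only these 8 libraries called 4 (Adipoq, Fabp4, Lep and Lpl) with 1.15%. Without LowAhR replicate 2, edgeR called 1 of the 10, Lep, beside 0.93% of all genes higher. The number of members called in this comparison thus depended on the model and on that library.

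In LowAhR+AD against LowAhR the median was -1.94, against 0.038 over all genes, and 8 of the 10 were called lower, where 6.21% of all genes were. In the same 8, all but Plin1 and Pparg, every LowAhR+AD library was below every LowAhR library, as in 9.85% of all genes. The same 8 were called without LowAhR+AD replicate 1, where 6.1% of all genes were and the median was -1.66, and the model of only the 8 libraries called 6 (not Fabp4 or Cfd) with 3.18% of all genes lower. The call of Fabp4 was lost without LowAhR replicate 1 or 2 and without LowAhR+AD replicate 2 or 3, fits in which 4.04% to 6.43% of all genes were called lower.

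In LowAhR+AD against Cont the median was -0.59, against 0.045 over all genes. It was -0.37 without LowAhR+AD replicate 1 and -1.06 with limma voom. In this comparison 3 of the 10 (Cidec, Cfd and Retn) were called lower, where 9.47% were. Cfd and Retn were also below Cont in every library, as 11.8% of all genes were. The same 3 were called without LowAhR+AD replicate 1, beside 10.6% of all genes, and without Cont replicate 4 only 1 was, Retn, beside 7.21% of all genes. Cfd also lost its call without Cont replicate 1 or 3 and without LowAhR+AD replicate 2 or 3. Lep had the 1 positive value of the 10 with all libraries, 0.31 (standard error 0.66), and it was at -0.025 without Cont replicate 1 and at -0.37 without LowAhR+AD replicate 4. Without LowAhR+AD replicate 1, Lep (0.56), Pparg (0.27) and Plin1 (0.14) were positive, and Plin1 was at 0.11 without Cont replicate 1.

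BJIKT was compared in LowAhR+AD+BJ against LowAhR+AD skin. The median log2 fold change was 0.26, against -0.00024 over all genes, 7 of the 10 were above 0, and 0 were called, as were 0% of all genes. At an unadjusted p under 0.05, 0 of the 10 were higher or lower, against 9.46% of all genes in either direction, and the libraries of all 10 overlapped, where 2.42% of all genes lay wholly higher and 2.65% wholly lower. DESeq2 called 0 of the 10, with 0.0943% of all genes higher and 0.0202% lower, and limma voom called 0 of the 10 and 0%. Without LowAhR+AD replicate 1 the median was -0.028 and 5 were above 0. The largest value was that of Pparg, 0.71 (standard error 0.77), and it was 0.30 (0.42) without that replicate. LowAhR+AD+BJ libraries were all below LowAhR libraries in the 8 genes named above, as in 8.19% of all genes, and all below Cont libraries in Cfd and Retn, as in 12.4%.

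The proportions between the genes differed between groups. Counted against Adipoq in the same library, Cfd was at 6.37 to 9.24 in Cont and at 2.01 to 4.30 in LowAhR skin, and Plin4 at 0.371 to 0.648 in Cont and 0.144 to 0.278 in LowAhR skin, in neither case with overlap. The ratio of Lpl to Adipoq was 2.54 to 3.72 in Cont and 1.25 to 2.52 in LowAhR skin, and that of Pparg was 0.0451 to 0.0920 and 0.00883 to 0.0361. Adipoq was therefore further above Cont than these 4 genes in LowAhR libraries. The ratio of Lep to Adipoq ran the other way, from 0.00814 to 0.04996 in Cont and from 0.0371 to 0.203 in LowAhR skin, with overlap. Retn against Adipoq was at 0.542 to 1.03 in Cont, 0.143 to 0.897 in LowAhR, 0.135 to 0.737 in LowAhR+AD and 0.103 to 0.738 in LowAhR+AD+BJ skin.

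**Figure D3:**
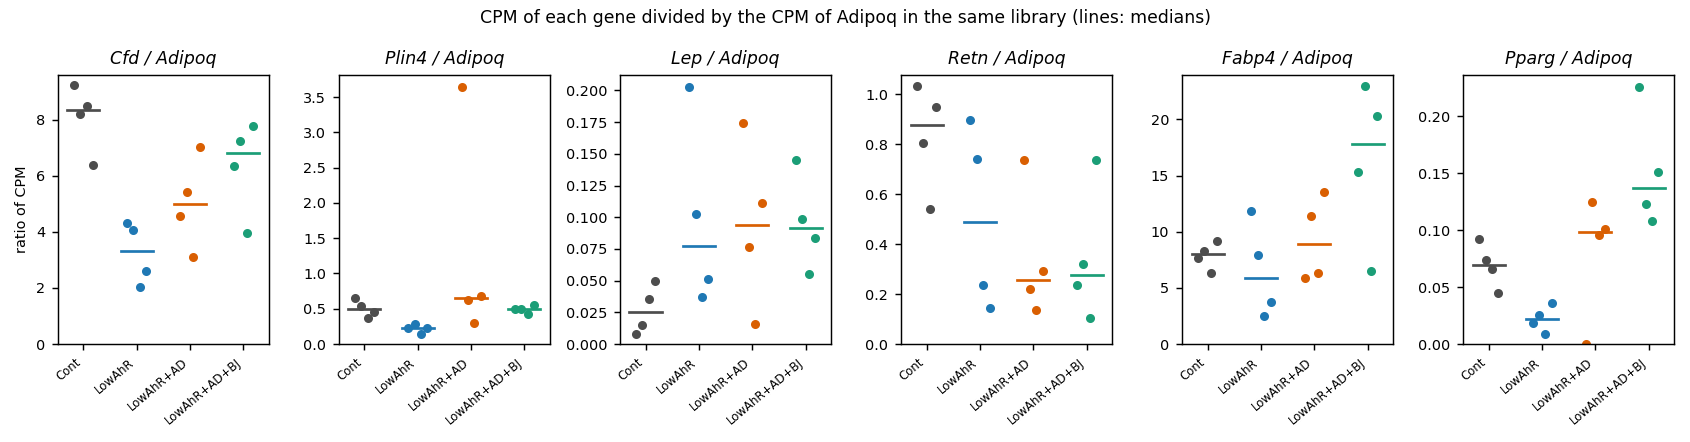
CPM of Cfd, Plin4, Lep, Retn, Fabp4 and Pparg divided by the CPM of Adipoq in the same library, by group, with lines at the medians and axes from 0. For Cfd the Cont libraries lie between 6.37 and 9.24 and the LowAhR libraries between 2.01 and 4.30; the high points of LowAhR+AD in Plin4 and the 0 in Pparg belong to replicate 1.

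Across the 16 libraries, the log2 CPM of Adipoq followed the mean of the other 9 most closely (Pearson r = 0.95), then Cfd (0.94) and Lpl (0.93), and Pparg least (0.56). Outside the list, the 10 genes most like the mean of the members, of 9379 genes with at least 10 CPM on average, were Pla2g16, Tusc5, Abcd2, Npr3, Grb14, Mettl7a1, Apol6, Drap1, Ifi27l2a and Rbp4, with r from 0.94 down to 0.92. After the group means were taken out, r over the same libraries was 0.76 to 0.94. These correlations are descriptions, since the libraries share their groups and LowAhR+AD replicate 1 is low in many of the genes. Pla2g16, a phospholipase that limits lipolysis in fat cells, had means of 151, 417, 111 and 166 CPM in Cont, LowAhR, LowAhR+AD and BJIKT-treated skin, and Npr3, the clearance receptor of natriuretic peptides, had 46.4, 175, 22.3 and 26.8 CPM.

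The other genes of fat cells were taken as 76 genes in 8 lists by role, drawn up with earlier results of these data known, and 75 of them passed the filter. In LowAhR against Cont, edgeR called 0 of the 75 and 0% of all genes. At an unadjusted p under 0.05, 9 of the 75 were higher, where 7.84% of all genes were, and 8 were lower. DESeq2 called 3 higher, where it called 2.4% of all genes higher, and it called 1 lower. The matching shares of all genes that were lower are not given here, so these lower counts cannot be set against a background. The model of only the 8 libraries called 3 higher, beside 1.15% of all genes, and limma voom called 0. The median over the 75 was 0.040, against 0.026 for all genes, beside 1.03 for the 10 genes. In 9 of the 75 every LowAhR library was above Cont, which held for 5.68% of all genes. Among the 9 was Sncg, a synuclein of fat cells and neurons, at a log2 fold change of 2.38 (edgeR, adjusted p = 0.0745). Others were G0s2, an inhibitor of the triglyceride lipase, with 2.04 (adjusted p = 0.222), and Tusc5, a regulator of glucose transporter traffic, with 1.502 (adjusted p = 0.135). The 1 gene that DESeq2 called lower was Acly, the enzyme that makes acetyl-CoA for lipid synthesis, whose mean was 126 ± 9.32 CPM in Cont skin and 76.5 ± 12.96 CPM on the diet (-0.72, adjusted p = 0.0846 in edgeR). These 4 were chosen after their values were seen.

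The genes with the highest means in each list were not called in that comparison by edgeR. The lipases Mgll and Pnpla2 stood at -0.55 and 0.87 on the log2 scale (adjusted p = 0.311 and 0.399), and Scd1 and Elovl6 of the lipogenic list 0.25 and -0.32 (adjusted p = 0.755 and 0.680). The fatty acid carrier Fabp5 and the transporter Cd36 were at 0.37 and 0.36 (adjusted p = 0.672 and 0.604), and Ptrf, a cavin, and Plin2, a droplet coat protein, at -0.087 and 0.45 (adjusted p = 0.929 and 0.632). Rarres2, which encodes the adipokine chemerin, and Angptl4, an inhibitor of lipoprotein lipase, were at 1.15 and 0.29 (adjusted p = 0.458 and 0.622). Every LowAhR library was above every Cont library in Fabp5, Rarres2 and Angptl4. The factors Rxra and Ebf1 were at -0.67 and -0.57 (adjusted p = 0.315 and 0.307), the progenitor markers Cd34 and Ly6a at -0.60 and 0.17 (adjusted p = 0.397 and 0.873), and Cox8b and Cox7a1 at -0.060 and -0.0060 (adjusted p = 0.966 and 0.999).

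In LowAhR+AD against LowAhR, 3 of the 75 rose and 24 fell in edgeR, beside 6.42% and 6.21% of all genes, and the median was -0.85. Without LowAhR+AD replicate 1 the counts were 2 and 28, in a fit that called 6.1% of all genes lower. In the list of uptake and insulin response 7 of 10 genes fell: Cd36, the fatty acid transporter, fell from 423 ± 119 to 130 ± 25.4 CPM (log2 fold change -1.71, adjusted p = 0.00100, edgeR), Tusc5 from 160 ± 20.7 to 42.3 ± 24.7 CPM (-1.91, adjusted p = 0.0126) and Slc2a4, the insulin-responsive glucose transporter, from 55.7 ± 10.8 to 20.7 ± 17.8 CPM (-1.43, adjusted p = 0.0324). Slc2a4 was at 46.5 CPM in LowAhR+AD replicate 1 and at 6.22 to 17.3 CPM in the others, and without that library the mean was 12.1 ± 5.55 CPM and the log2 fold change -2.21. Its call was lost in each fit without LowAhR replicate 1, 2 or 3 or LowAhR+AD replicate 2, 3 or 4 (adjusted p = 0.0523 to 0.0864). All 12 skeletal muscle markers also fell in this comparison, with a median log2 fold change of -2.74. The part of muscle in the fall of Slc2a4 and the other uptake genes was not tested. The 1 gene of the uptake and insulin response list that rose was Fabp5, the fatty acid carrier of keratinocytes, from 624 ± 72.4 to 2271 ± 958 CPM (1.86, adjusted p = 0.00222).

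Of the 16 lipogenic genes, edgeR called 6 lower and 0 higher, beside 6.21% and 6.42% of all genes. With or without a call, 11 had a negative log2 fold change and 5 a positive one. Among the 5 were Fasn (0.77), Acaca (0.56) and Agpat2 (0.51). In Acaca and Agpat2 every LowAhR+AD library was above every LowAhR library. Scd1, the desaturase of stearoyl-CoA, fell from 3567 ± 1144 to 783 ± 209 CPM (log2 fold change -2.19, adjusted p = 0.000201, edgeR), Thrsp, a lipogenic factor, by 2.17 on the log2 scale (adjusted p = 0.00813), Lpin1 by 1.25 (adjusted p = 0.0105) and Dgat2, which makes triglyceride, by 1.20 (adjusted p = 0.0137). Scd1, Elovl6 and Dgat2 are also used by sebaceous glands, whose 8 markers summed to 726 to 1020 CPM in LowAhR and 315 to 952 CPM in LowAhR+AD skin, with 2 of the 7 tested called lower and 1 of the 8 without a count in any LowAhR+AD library. The part of that in the result was not tested.

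The counts per list that follow stand beside 6.21% of all genes called lower and 6.42% called higher in LowAhR+AD against LowAhR. In the lipolysis list 1 gene of 8 fell, which is not read as a result about lipolysis. It was Pde3b, the phosphodiesterase through which insulin restrains lipolysis, from 73.9 ± 19.9 to 17.8 ± 5.53 CPM (log2 fold change -2.05, adjusted p = 0.000889, edgeR). Of the 10 droplet coat and caveola genes 2 fell, Sdpr, a cavin, from 416 ± 74.9 to 116 ± 16.3 CPM (-1.84, adjusted p = 0.000115) and Cav1 by 1.04 on the log2 scale (adjusted p = 0.0334). The call of Cav1 was lost without LowAhR replicate 1, 2 or 3 and without LowAhR+AD replicate 2 or 4 (adjusted p = 0.0581 to 0.103). Of the 8 secreted factors 3 fell: Rbp4, the retinol carrier, from 79.0 ± 34.9 to 7.48 ± 5.56 CPM (-3.40, adjusted p = 0.00588), Sncg by 1.85 (adjusted p = 0.0294) and Nampt by 0.85 (adjusted p = 0.0152). That of Sncg was lost without LowAhR replicate 1 or 3 and LowAhR+AD replicate 2 or 3 (adjusted p = 0.0599 to 0.0782), and that of Nampt without LowAhR replicate 2 (adjusted p = 0.0633). Among 9 transcription factors Cebpd and Ebf1 fell, by 1.27 (adjusted p = 0.0158) and 1.11 (adjusted p = 0.00831), and Cebpb rose by 1.04 (adjusted p = 0.0432), a call lost without LowAhR+AD replicate 1 (0.54, adjusted p = 0.196) and without any single LowAhR library (lowest adjusted p = 0.0597). Cebpd lost its call without LowAhR replicate 1 (adjusted p = 0.0529).

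Of 9 progenitor genes, Cd34 fell from 1205 ± 403 to 432 ± 77.2 CPM (log2 fold change -1.48, adjusted p = 0.00535, edgeR) and Cd24a rose from 50.9 ± 5.95 to 138 ± 23.4 CPM (1.44, adjusted p = 0.00396). Both are also expressed outside fat, Cd34 in hair follicle stem cells and vessels and Cd24a in keratinocytes. Of the 5 genes of brown and beige fat that were tested, Cox8b fell from 161 ± 47.0 to 26.3 ± 15.97 CPM (-2.61, adjusted p = 0.000696) and Cox7a1 from 142 ± 40.7 to 26.5 ± 23.1 CPM (-2.43, adjusted p = 0.00346). Both genes are muscle forms of cytochrome oxidase subunits as well. Ucp1, which defines brown fat, did not pass the filter on low counts.

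**Figure D4:**
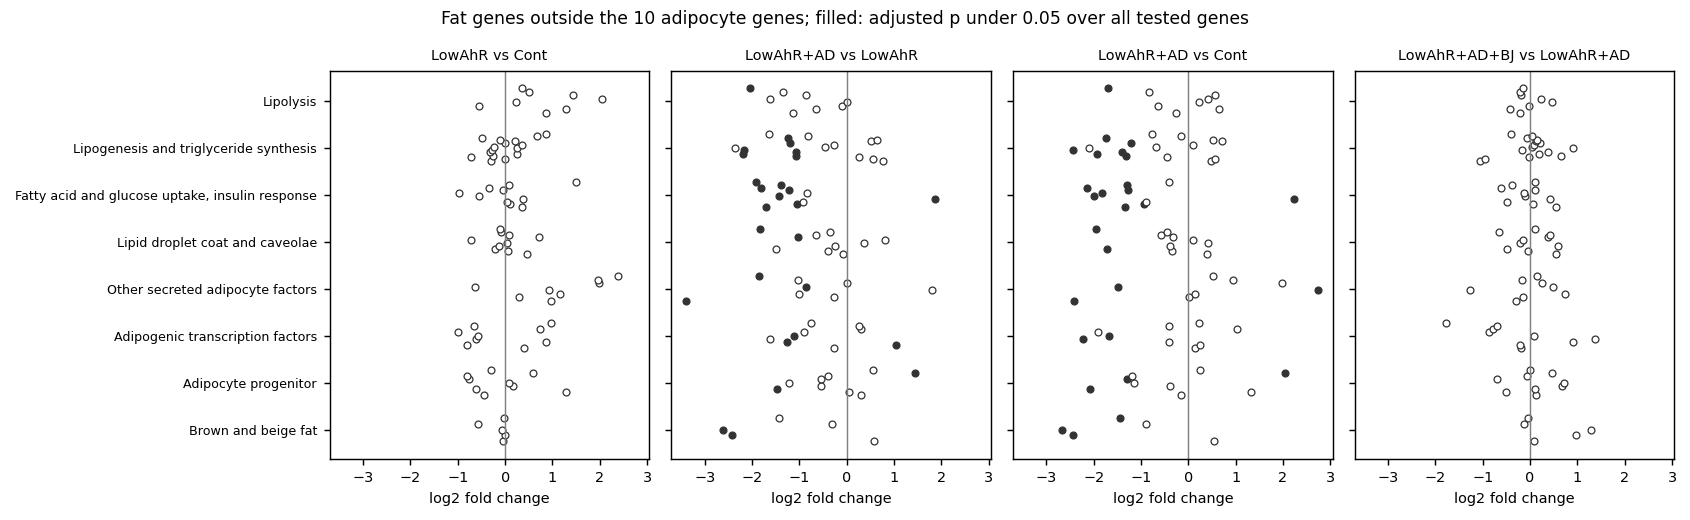
Log2 fold change of the 75 tested fat genes outside the 10, by list, in the 4 comparisons, with filled points for an adjusted p under 0.05 (edgeR). In LowAhR+AD against LowAhR 24 points below 0 and 3 above it are filled, against 0 in LowAhR against Cont and in LowAhR+AD+BJ against LowAhR+AD.

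Against Cont, 3 of the 75 rose and 25 fell in LowAhR+AD skin, beside 12.3% and 9.47% of all genes. The counts were 3 and 28 without LowAhR+AD replicate 1, in a fit that called 10.6% of all genes lower. In the list of uptake and insulin response 7 of 10 fell and 1 rose. Irs2, an insulin receptor substrate, fell by 2.15 on the log2 scale (adjusted p = 0.00686, edgeR) and the insulin receptor gene Insr from 45.8 ± 6.86 to 12.9 ± 1.94 CPM (-1.82, adjusted p = 0.00166). Slc2a4 was at -1.99 (adjusted p = 0.00326), and at -2.78 without LowAhR+AD replicate 1. Fabp5 rose by 2.24 (adjusted p = 0.000308). Of the 16 lipogenic genes 6 fell, among them Thrsp (-2.45, adjusted p = 0.00209), Scd1 (-1.94, adjusted p = 0.000230), Lpin1 (-1.75, adjusted p = 0.000726) and Elovl6, a fatty acid elongase (-1.40, adjusted p = 0.00224).

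The lipolysis gene Pde3b fell by 1.70 against Cont (adjusted p = 0.00119, edgeR), and so did the coat and caveola genes Sdpr (-1.95, adjusted p = 2.94e-05) and Plin5 (-1.72, adjusted p = 0.0357). Plin5, a perilipin of oxidative tissues, was at -2.75 without LowAhR+AD replicate 1 and lost its call without Cont replicate 1 or 4 and LowAhR+AD replicate 2, 3 or 4 (adjusted p = 0.0750 to 0.133). Of the secreted factors Rbp4 (-2.43, adjusted p = 0.0186) and Nampt (-1.49, adjusted p = 0.000253) fell. Ebf1 fell by 1.68 (adjusted p = 0.000308), Cd34 by 2.08 (adjusted p = 0.000321) and Pi16, a marker of progenitors in fat and of fibroblasts, by 1.31 (adjusted p = 0.00870), while Cd24a rose by 2.03 (adjusted p = 0.000229). In the brown and beige list Cox8b fell by 2.67 (adjusted p = 0.000247), Cox7a1 by 2.43 (adjusted p = 0.00161) and Ppargc1a, a coactivator of mitochondrial genes that muscle also makes, by 1.46 (adjusted p = 0.0362). The call of Ppargc1a was lost without Cont replicate 2 or 4 and LowAhR+AD replicate 2, 3 or 4 (adjusted p = 0.0699 to 0.140). Tusc5, Sncg and Cav1, which were lower than LowAhR, did not pass against Cont. Apln, the apelin gene, rose by 2.74 (adjusted p = 0.00887), but without LowAhR+AD replicate 1 it was at 1.71 (adjusted p = 0.0620).

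In LowAhR+AD+BJ against LowAhR+AD, edgeR, DESeq2 and limma voom called 0 of the 75. Of all genes, edgeR called 0% and DESeq2 0.0943% higher and 0.0202% lower. At an unadjusted p under 0.05 in edgeR, 6 of the 75 were higher and 6 lower, against 9.46% of all genes in either direction. The genes with the highest means stayed uncalled in every list. Cd36 was at 190 ± 60.5 CPM in LowAhR+AD+BJ and 130 ± 25.4 CPM in LowAhR+AD skin (log2 fold change 0.55, adjusted p = 0.527, edgeR), Scd1 at 894 ± 85.7 and 783 ± 209 CPM (0.19, adjusted p = 0.845), and Plin2 at 1264 ± 524 and 870 ± 328 CPM (0.54, adjusted p = 0.636). Further from 0 among the genes with the highest means were Cox8b (1.28, adjusted p = 0.498), Cox7a1 (0.97, adjusted p = 0.522), Rarres2 (0.75, adjusted p = 0.735), Rxra (-0.69, adjusted p = 0.505), Ly6a (0.68, adjusted p = 0.518) and Ptrf (-0.67, adjusted p = 0.5005). Without LowAhR+AD replicate 1 they were at 1.29, 0.81, 0.35, -0.22, 0.43 and -0.31 in the same order. Other genes of the lists, such as Zfp423 (-1.78) and Klf15 (1.38), lay further out and were not called either. Fabp5 (0.43, adjusted p = 0.695), Elovl6 (0.38, adjusted p = 0.678), Pnpla2 (-0.21, adjusted p = 0.905), Angptl4 (-0.15, adjusted p = 0.857), Cd34 (0.10, adjusted p = 0.935), Ebf1 (0.090, adjusted p = 0.931) and Mgll (-0.029, adjusted p = 0.976) were nearer to 0. Pnpla2 was at -0.53 without LowAhR+AD replicate 1.

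Markers of other cells moved with the groups. The 7 markers of the epidermis were present in every library, at summed levels of 5668 to 15644 CPM. The 12 skeletal muscle markers summed to 8546 to 15593 CPM in Cont, 11763 to 27655 in LowAhR, 572 to 4615 in LowAhR+AD and 3474 to 13259 in LowAhR+AD+BJ skin. The 6 fibroblast markers summed to 28442 to 70889, 29043 to 55380, 3943 to 22994 and 11182 to 20492 CPM in the same order. In LowAhR+AD against LowAhR 12 of 12 muscle and 3 of 6 fibroblast markers fell, beside 6.21% of all genes. The 19 hair follicle markers, which rise in the growth phase of the hair cycle, summed to 45.3 to 1120, 137 to 13942, 8115 to 38151 and 8216 to 25178 CPM. In LowAhR against Cont 19 of 19 were positive, with a median log2 fold change of 4.39, and edgeR called 0. At an unadjusted p under 0.05, 18 were higher there, beside 7.84% of all genes, but in 0 was every LowAhR library above Cont. In LowAhR+AD against LowAhR 2 of 19 were called higher, beside 6.42% of all genes, and against Cont 17 of 19, beside 12.3%. Of the 19, 2 had no count in any Cont library. In LowAhR+AD skin the 7 markers of activated keratinocytes rose against both LowAhR and Cont, from 589 to 1812 CPM in LowAhR to 12012 to 35898 CPM. The macrophage sum was 568 to 1332 CPM in Cont, 1594 to 1765 in LowAhR, 241 to 1726 in LowAhR+AD and 973 to 2238 in LowAhR+AD+BJ skin, with 0 of 10 called in LowAhR+AD against LowAhR. LowAhR+AD replicate 1 held the lowest fibroblast, macrophage and adipocyte sums of all libraries. The sums of the 10 adipocyte genes were 3345 to 6678, 9026 to 13517, 594 to 4412 and 2988 to 4139 CPM. The part of these lists in the levels of the adipocyte genes was not tested. Leaving the muscle and hair follicle markers out of the library sizes kept the same 8 members called in LowAhR+AD against LowAhR. That fit changed only the scaling of the libraries and does not address the share of each tissue in a sample.

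**Figure D5:**
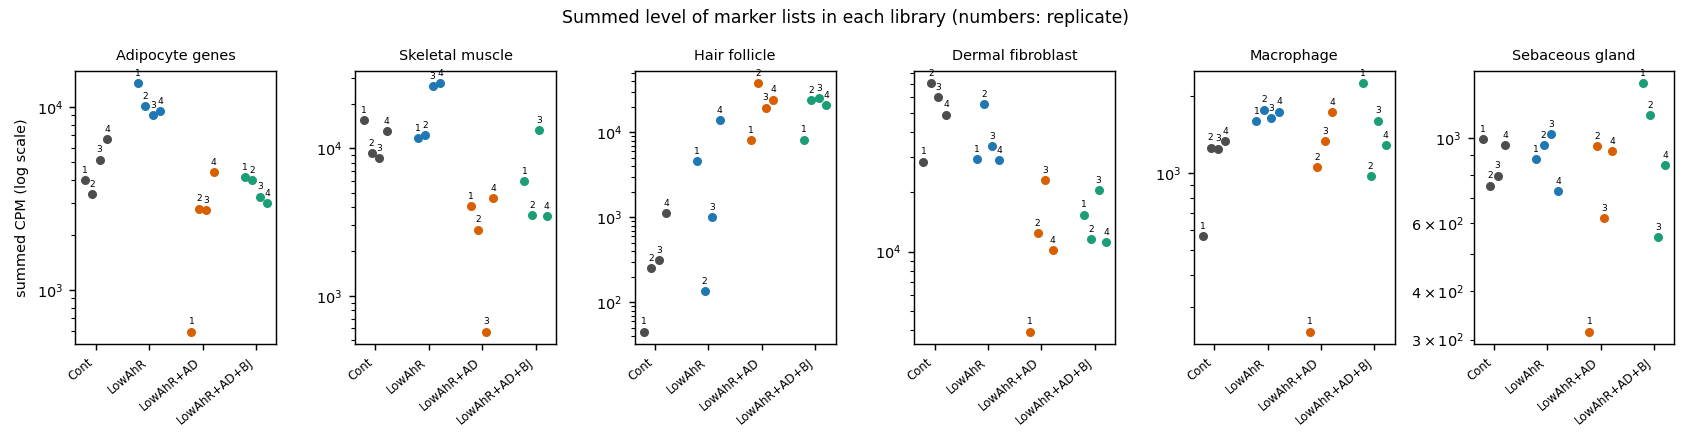
Summed CPM of the adipocyte genes and of marker lists in each library, on log axes, with the replicate number beside each point. The muscle sums of LowAhR+AD skin, 572 to 4615 CPM, lie below all LowAhR sums, 11763 to 27655 CPM, as do those of the adipocyte genes.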

How the data were processed

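The authors deposited, for each of 16 libraries, raw read counts per gene symbol without normalization. Per the paper's methods they made 1 QuantSeq 3′ library per mouse and sequenced single ends, and the submitters' processing notes name Bowtie2, bedtools and the mm10 build, with no role or version. How reads matching several genes were treated is not given in the sources used here. Groups and replicate numbers came from the sample labels. The 10 genes, the other gene lists and the marker lists were chosen with earlier results of these data known.

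The count model was fitted with edgeR 4.0.16 in R 4.3.3, with TMM factors (0.892 to 1.16), filterByExpr (minimum count 10, minimum total 15; 14854 of 23282 rows and 99.9% of the counts kept), and the quasi-likelihood test with all libraries in 1 model. Calls were made at an adjusted p of 0.05, with the Benjamini-Hochberg method applied over the 14854 rows. CPM used TMM-scaled library sizes, and log2 CPM a prior count of 2. For the 10 genes the test served only to count calls. Library totals were 7080508 to 13467477 counts. Replicates of a group differed by far more than sampling noise (chi-square per degree of freedom 16.4 to 285), and each mouse counted as 1 replicate.

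Named genes were all members and, per list and comparison, up to 4 called genes with a mean of at least 10 CPM in 1 group, by size of change, or else the 2 with the highest means. A gene with no count was read as up to 3 counts. Of the 76 fat genes, 3 were found under older symbols (Tusc5, Ptrf and Sdpr). Alternatives were RLE size factors, DESeq2 1.42.0, limma 3.58.1 voom, no filter on low counts, a fit restricted to the 8 libraries of each comparison, a block for the replicate number, library sizes without muscle and hair follicle markers, and each library left out in turn. The fitting steps were tested on simulated counts. Promoters and gene positions came from RefSeq for GRCm38.p6.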

Additional observations from a re-analysis of the deposited data

Results flagged for a closer look

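In 16 of 184 groups of 4 libraries tested, 1 library stood apart by Dixon's test, which chance passes in about 1 in 20 groups. Among the 40 groups of adipocyte genes there was 1, Pparg in LowAhR+AD skin, at 0 CPM in replicate 1 against 15.3 CPM in the next library. Of all 16, 5 were LowAhR+AD replicate 1: besides Pparg, Rbp4 was at 0 CPM against 6.89 CPM in the next library, Fabp5 at 840 CPM against 2617 CPM, Rxra, a partner of nuclear receptors, at 201 CPM against 83.8 CPM, and Plin5, a droplet coat protein of oxidative tissues, at 16.9 CPM against 3.58 CPM. This library was therefore at the low end in 3 of the 5 and at the high end in the other 2.

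In Cont skin replicate 1 stood apart in Fabp5 (568 CPM), Rarres2 (57.1 CPM), Angptl4 (91.1 CPM) and Ebf1 (98.3 CPM), and replicate 2 in Sncg (2.84 CPM). In LowAhR skin Thrsp (19.1 CPM) and Cebpd (105 CPM) stood apart in replicate 1, Nampt (118 CPM) in replicate 2 and Dgat2 (114 CPM) in replicate 4. In LowAhR+AD+BJ skin Angptl4 (143 CPM) and Cebpb (155 CPM) did so in replicate 1.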

How the results depend on the processing

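The values followed were the median log2 fold change of the 10 genes and the counts of other fat genes called in each direction. Of 180 alternative values, 174 stayed within the set limits. This does not mean that each kept its direction: the BJIKT median was 0.26 with all libraries and -0.028 without LowAhR+AD replicate 1. DESeq2 called 3 other fat genes higher and 1 lower in LowAhR against Cont, where edgeR called 0, and the model of only the 8 libraries called 3 higher there and 12 lower, in place of 24, in LowAhR+AD against LowAhR. The replicate block, with the replicate number in the model, called 5 higher in LowAhR+AD against Cont in place of 3. The labels do not say whether the numbers pair the mice, and these values could not settle it. Deviations of same-numbered libraries correlated at -0.0547 to 0.167, and not every pair was over 0.1. The highest same-number value was above that of other pairs in LowAhR+AD against Cont (0.155, 0.0953) and for BJIKT (0.167, 0.127). It was below in LowAhR against Cont (0.0406, 0.0932) and LowAhR+AD against LowAhR (0.0163, 0.0618). Leaving out single libraries gave 0 to 2 genes higher in LowAhR against Cont, with 2 only without LowAhR replicate 2, and 17 to 28 lower in LowAhR+AD against LowAhR. The member median stayed at 0.85 to 1.29 in LowAhR against Cont at -2.36 to -1.66 in LowAhR+AD against LowAhR and at -0.90 to -0.37 in LowAhR+AD against Cont, while for BJIKT it ranged from -0.028 to 0.57.

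Fat genes outside the 10 changed sign in 17 cases, in none of which they were called. The 10 genes changed sign in 13 cases with 1 library left out, again in none where they were called. These were Pparg in LowAhR against Cont and in LowAhR+AD against LowAhR, Lep, Plin1 and Pparg in LowAhR+AD against Cont, and for BJIKT Adipoq (-0.21 without LowAhR+AD replicate 1, -0.15 without LowAhR+AD+BJ replicate 3), Lpl (-0.060 without LowAhR+AD replicate 1) and Cidec (0.058 to 0.14 without LowAhR+AD replicate 3 or 4 or LowAhR+AD+BJ replicate 4). In LowAhR against Cont, Cox7a1 was at 0.0941 with the replicate block, and with single libraries left out it ranged from -0.180 to 0.176, Cox8b from -0.257 to 0.0865 and Ly6a from -0.0385 to 0.3004. In LowAhR+AD+BJ against LowAhR+AD, Pnpla2 was at 0.00783 with limma voom, and with single libraries left out it ranged from -0.528 to 0.0400, Ebf1 from -0.0841 to 0.207, Mgll from -0.109 to 0.0399, Angptl4 from -0.395 to 0.0333 and Cd34 from -0.110 to 0.224. The cause was not tested. In 48 further cases a single gene kept its direction and lost its call.

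With 4 libraries a group, changes smaller than the spread between mice could not be detected, and counts of 10 to 40 for Lep in single Cont and LowAhR+AD libraries limit its precision there.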
